A study of Mus musculus with 15 samples.

Results

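A set of 10 inflammatory response genes was followed through a Myc activation time course: Nfkbia, Tnfaip3, Relb, Ccl2, Ccl7, Cxcl1, Cxcl5, Il6, Ptgs2 and Icam1. They were taken by name, 10 of 22231 protein-coding gene symbols of GENCODE vM1 on the mouse build mm9, and the rule holds no threshold on a measured value. Chromatin immunoprecipitation with sequencing (ChIP-seq) had mapped Myc (antibody N262) and RNA polymerase II (RNAPII, antibody N20) in 3T9-MycER cells. These fibroblasts from E13.5 embryos are c-myc flox/flox and had been infected in culture with MycER, in which Myc is joined to a hormone receptor domain. MycER acts once 4-hydroxytamoxifen (OHT) is given, here at 400 nM, and libraries were made without OHT (0 min) and after 10 min, 20 min, 30 min, 2 h and 4 h. Miz1, a zinc finger partner of Myc encoded by Zbtb17, was mapped with antibody 10E2 in the same MycER-infected, floxed fibroblasts without OHT. It was also mapped in spleen B cells of wild-type C57BL/6 mice of 6 to 8 weeks, enriched with B220 beads. Nothing in the labels says that the floxed alleles had been deleted, and no N262 peak is attributed here to MycER or to the cells' own Myc.

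With 1 library in every group, differences below have no replicates behind them and come without p-values. Myc libraries held 28132063 to 33431447 tags. RNAPII libraries held 15276996 to 19999678 tags, apart from the 20 min library with 36396286. The Miz1 libraries held 10164509 tags in fibroblasts and 24237295 in B cells. Among 8 fibroblast markers 7 had both a Myc and an RNAPII promoter peak at 4 h and at 0 min, the exception being Thy1. None of 8 B cell markers and none of 8 endothelial and epithelial markers had either at those times, and of 8 macrophage and other leukocyte markers only Cd68 did. RNAPII was not mapped in the B cells, so their label could not be checked in this way.

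NF-kB is a family of dimeric transcription factors that IkB proteins hold in the cytoplasm. Inflammatory signals activate the IKK kinases, IkB is degraded, and the freed dimers bind κB sites of their targets. Some of these targets, such as Nfkbia and Tnfaip3, encode inhibitors that close a negative feedback loop. Fibroblasts answer such signals with chemokines that attract monocytes and neutrophils, and with interleukin 6 and prostaglandins. Myc pairs with Max and prefers the E-box CACGTG.

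The promoters are shown before their values because κB sites and E-boxes lie at different distances from where the Myc peaks had their summits. Each of the first 7 sequences is the 120 bp directly upstream of the outermost transcription start site (TSS), read 5′ to 3′ on the gene's strand from the NCBIM37 (mm9) reference. They are chr12:56593635-56593754 (minus strand) for Nfkbia, chr10:18735464-18735583 (minus) for Tnfaip3, chr7:20214788-20214907 (minus) for Relb, chr5:91320147-91320266 (plus) for Cxcl1, chr5:91188205-91188324 (plus) for Cxcl5, chr5:30339581-30339700 (plus) for Il6 and chr1:151947134-151947253 (plus) for Ptgs2. Capitals mark matches to the κB consensus on either strand or to CACGTG.
Nfkbia: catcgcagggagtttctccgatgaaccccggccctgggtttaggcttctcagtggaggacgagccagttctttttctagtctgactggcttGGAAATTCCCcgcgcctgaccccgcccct
Tnfaip3: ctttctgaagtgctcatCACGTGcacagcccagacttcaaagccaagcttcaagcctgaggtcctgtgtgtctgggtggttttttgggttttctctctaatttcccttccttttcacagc
Relb: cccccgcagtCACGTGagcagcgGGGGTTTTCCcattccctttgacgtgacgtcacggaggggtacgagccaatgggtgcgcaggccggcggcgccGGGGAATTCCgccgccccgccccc
Cxcl1: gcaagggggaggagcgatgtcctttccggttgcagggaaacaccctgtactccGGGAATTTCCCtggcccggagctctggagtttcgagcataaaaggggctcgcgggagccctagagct
Cxcl5: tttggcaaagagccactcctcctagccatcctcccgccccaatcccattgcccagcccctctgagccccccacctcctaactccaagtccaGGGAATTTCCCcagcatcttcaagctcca
Il6: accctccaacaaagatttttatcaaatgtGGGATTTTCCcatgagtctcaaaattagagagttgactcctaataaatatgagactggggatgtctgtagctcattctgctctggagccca
Ptgs2: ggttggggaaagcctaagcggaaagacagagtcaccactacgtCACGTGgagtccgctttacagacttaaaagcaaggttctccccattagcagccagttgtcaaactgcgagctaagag

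From 250 bp before to 50 bp after the TSS, 5 of 10 genes held the κB consensus (Nfkbia, Relb, Cxcl1, Cxcl5 and Il6), and 4.74% of all 22231 promoters did. CACGTG lay in 3 of 10 promoters (Tnfaip3, Relb and Ptgs2), against 7.77% of all. TATAAA on the gene's strand, starting 20 to 40 bp before the TSS, occurred in 1 of 10 (Ccl7), against 2.36% of all. Cxcl1 and Cxcl5 shared the κB match GGGAATTTCC, read on the gene's strand from 67 bp before the Cxcl1 TSS and from 29 bp before the outermost Cxcl5 TSS. Nfkbia held the same letters on the opposite strand, between 29 and 20 bp before its TSS. Relb alone of the 10 genes had both motifs in this window, with CACGTG starting 110 bp and κB matches starting 97 bp and 24 bp before the outermost TSS. Matches on both strands that overlap are shown as 1 run of capitals. Such matches describe letters in a window and are not measurements of binding.

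Beyond the promoters, the summits of the Myc peaks at Ccl2 and Cxcl1 are shown, because the Ccl2 summit lay far upstream of the gene and the Cxcl1 peak had the highest ratio of Myc after OHT to Myc before it among the 10 genes at all 5 later times. The Ccl2 sequence is 200 bp around the 4 h summit, chr11:81846553-81846752 on the plus strand, and the Cxcl1 sequence is chr5:91319832-91320051 on the plus strand. Capitals mark the κB match in Ccl2 and the pair of E-boxes in Cxcl1.
Ccl2: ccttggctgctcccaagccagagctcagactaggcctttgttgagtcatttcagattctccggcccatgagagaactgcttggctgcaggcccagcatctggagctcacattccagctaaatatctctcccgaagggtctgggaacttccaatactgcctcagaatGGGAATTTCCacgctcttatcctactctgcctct
Cxcl1: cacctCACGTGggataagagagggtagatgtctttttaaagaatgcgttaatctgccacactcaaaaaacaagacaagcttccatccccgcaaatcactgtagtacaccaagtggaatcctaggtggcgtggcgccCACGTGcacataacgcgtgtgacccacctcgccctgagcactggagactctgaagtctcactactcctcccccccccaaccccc

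Myc was already called at most of these genes before OHT. A promoter peak, meaning a called peak that overlaps the 1000 bp either side of a protein-coding TSS by at least 1 bp, was present for Myc at 8 of 10 genes at 4 h and at the same 8 at 0 min. Over all genes 46.6% had one at 4 h and 44.6% at 0 min. The 8 genes kept their Myc peak at all 6 times, as did 43.2% of all genes. RNAPII had a narrow promoter peak at 7 of 10 genes at 4 h (46.7% of all genes) and at 8 at 0 min (47.4%). At all 6 times 7 of 10 had it, and 43.5% of all genes did. The broad RNAPII lists, called on the same libraries with other settings, held 7 of 10 genes at 4 h (43.7% of all) and 6 at 0 min (44.3% of all). The 10 genes were named by hand, so nothing particular to them is read from these shares.

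**Figure D1:**
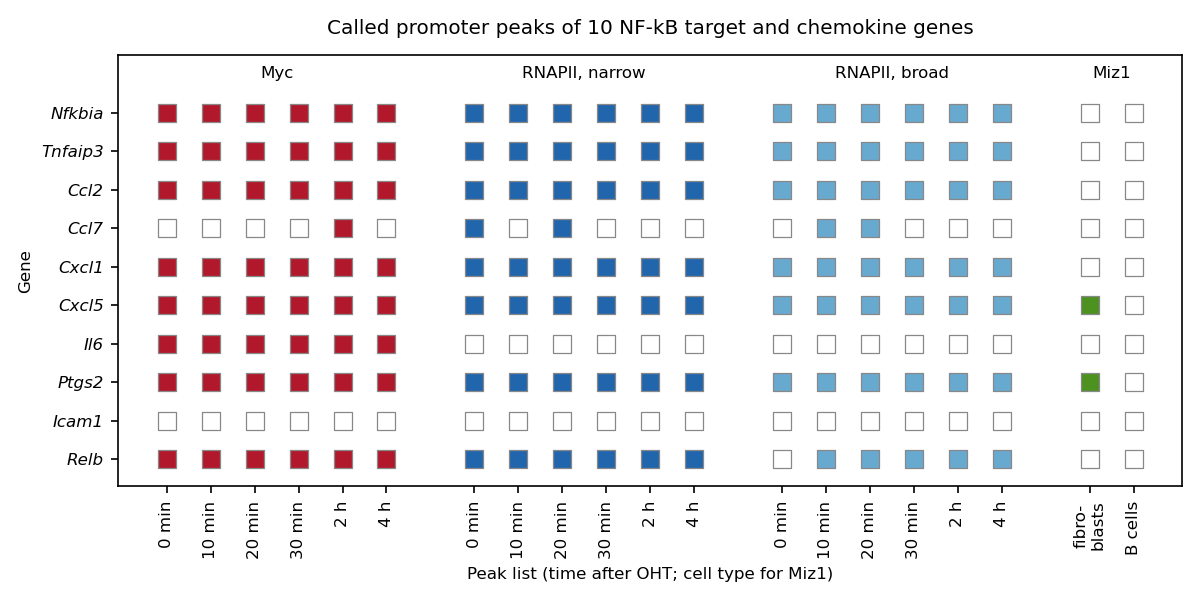
Called promoter peaks of the 10 genes (rows) in the 20 peak lists (columns, by time after OHT or, for Miz1, by cell type). A filled square is a called peak. Nfkbia, Tnfaip3, Ccl2, Cxcl1, Cxcl5, Ptgs2 and Relb were filled at all 6 times for Myc and narrow RNAPII, Il6 for Myc alone, and Icam1 nowhere.

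To set the times side by side, the authors' tag count in each promoter peak was expressed per 1000000 library tags (CPM). Intervals are exact Poisson 95% intervals on that count and cover counting error only. Peak length differs between lists, so the ratio per kb of peak is named where it matters. Most promoters had more Myc CPM after OHT: over the 9607 genes with a Myc peak at all 6 times, the median ratio to 0 min was 1.499 at 10 min, 1.67 at 20 min, 1.35 at 30 min, 1.89 at 2 h and 1.46 at 4 h. For RNAPII, over 9663 genes, the median ratios were 1.01, 1.04, 1.02, 0.87 and 0.95 at those times. Every ratio below is read against these medians.

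Per kb of called peak, Cxcl1 had the highest Myc level of the 8 genes at 4 h, with 6.125 CPM per kb. It was followed by Tnfaip3 (4.22), Ccl2 (3.14), Ptgs2 (2.61), Il6 (2.20), Nfkbia (2.18), Cxcl5 (1.88) and Relb (1.29). From Ccl2 downwards the Poisson interval of each gene overlapped that of the next. For RNAPII per kb at 4 h the order was Cxcl1 (6.44), Nfkbia (5.89), Ptgs2 (5.66), Tnfaip3 (3.23), Ccl2 (2.95), Cxcl5 (2.71) and Relb (2.39). Only between Ptgs2 and Tnfaip3 did the intervals of neighbours in this order not overlap.

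The feedback inhibitors come first. Nfkbia (ENSMUSG00000021025.7, chromosome 12, 56590398 to 56593634, minus strand) encodes IkBα, which binds NF-kB and takes it out of the nucleus. Its Myc peak held 2.84, 4.27, 4.72, 4.41, 5.91 and 5.03 CPM at 0, 10, 20 and 30 min, 2 h and 4 h. The ratio to 0 min was 1.501 to 2.08, close to the medians, and between 49.0% and 79.5% of genes had a lower ratio at the 5 times. All 6 Myc summits lay in exonic sequence, 64 to 176 bp past the TSS. Its RNAPII peak was among the strongest of each list, with a fold enrichment above that of 98.7% to 99.6% of peaks. RNAPII CPM were 46.9, 39.8, 41.8, 44.2, 42.4 and 44.7 over the 6 times, so that every later value lay between 0.85 and 0.95 of the 0 min value. The narrow peak ran past the 3′ end of the gene by 3372 to 6575 bp at all 6 times.

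Tnfaip3 (ENSMUSG00000019850.5, chromosome 10, 18720716 to 18735463, minus strand) encodes A20, a ubiquitin-editing enzyme that shuts off signalling to NF-kB. Myc CPM were 6.01, 9.74, 10.7, 8.73, 12.2 and 10.6 over the 6 times, and the ratios to 0 min of 1.45 to 2.04 were near the medians. The E-box of its promoter starts 103 bp before the outermost TSS. The Myc peak at 4 h also held CACGTG inside the gene, with its middle 216 bp past that TSS. These E-boxes lay on either side of the 4 h summit, with middles 119 bp and 198 bp from it. No Myc summit had CACGTG in the 200 bp around it. A κB match lay in that window at 0, 10 and 20 min and 2 h, and not at 30 min or 4 h. RNAPII in the promoter peak was 12.6, 9.55, 17.2, 12.3, 9.52 and 9.22 CPM. The 20 min value was the highest and came from the longest peak, 7152 bp, against 3652 bp at 0 min; per kb of peak it was 0.70 of the 0 min value.

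Relb (ENSMUSG00000002983.9, chromosome 7, 20191566 to 20214787, minus strand) encodes a subunit of the non-canonical NF-kB pathway. Its Myc peak held 1.82, 2.13, 3.14, 2.07, 3.17 and 1.65 CPM. The 4 h value was 0.91 of the 0 min value, and only 2.71% of genes had a lower ratio, but the peaks held only 48 tags at 4 h and 61 at 0 min and their intervals overlapped. RNAPII was 10.997, 14.4, 14.2, 13.3, 11.4 and 11.4 CPM. That peak also reached over the 3′ end of Clptm1, which ends 2143 bp upstream of Relb on the same strand. The summit of the 0 min peak lay there, 2759 bp upstream of the nearest Relb TSS, while at the other 5 times it lay 119 to 201 bp inside Relb, so these RNAPII tags are not those of Relb alone. A broad RNAPII peak was called at the 5 later times and not at 0 min, in the shallowest RNAPII library.

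**Figure D2:**
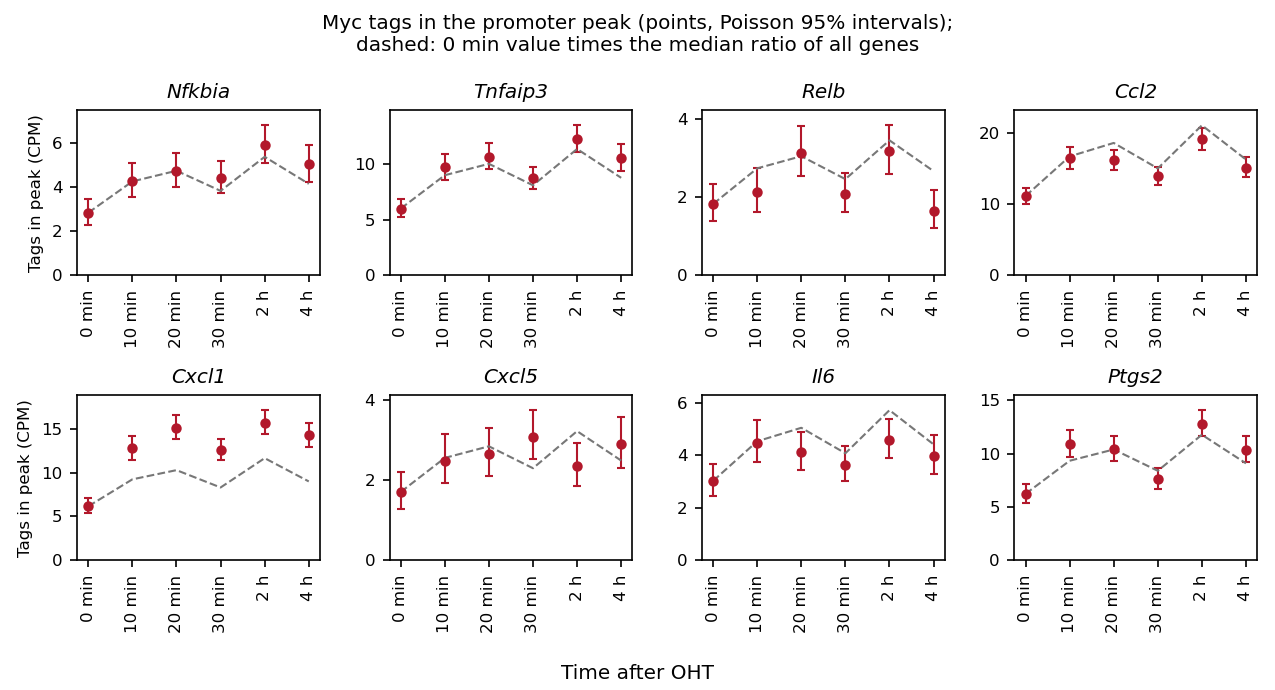
Myc tags in the promoter peak in CPM (vertical axis) by time after OHT (horizontal axis), for the 8 genes with a Myc peak at all 6 times. Points are single libraries, bars are exact Poisson 95% intervals, and the dashed line is the 0 min value times the median ratio of all genes. Cxcl1 stood above its dashed line at all 5 later times, and Relb lay below its own at 4 h (1.65 CPM).

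Among the chemokines, Cxcl1 stood out for Myc. Cxcl1 (ENSMUSG00000029380.10, chromosome 5, 91320267 to 91322141, plus strand) encodes a neutrophil attractant. Myc CPM were 6.16, 12.8, 15.1, 12.6, 15.7 and 14.3 at the 6 times. The value at each later time was over 2-fold that at 0 min (2.07, 2.46, 2.04, 2.55 and 2.31), and no later interval overlapped the 0 min interval of 5.35 to 7.06. Between 89.5% and 95.3% of genes had a lower ratio, and 4.38% of the 9607 genes (421) were at least 2-fold of 0 min at all 5 later times. Peak length was 2059 to 2421 bp, and per kb of peak the ratios were 2.17, 2.24, 1.82, 2.44 and 2.14. All 6 summits lay 320 to 338 bp upstream of the TSS, between the E-boxes printed above, and at least 1 of the 2 E-boxes fell in the 200 bp around every summit. Over all 23617 Myc summits at 4 h, 14.2% had CACGTG in such a window. The κB match of Cxcl1 lay outside it, with its middle 263 bp on the gene side of the 4 h summit.

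RNAPII at Cxcl1 did not show the same pattern. RNAPII CPM were 38.4, 33.1, 40.4, 46.3, 43.9 and 36.6, with ratios to 0 min of 0.86, 1.05, 1.21, 1.14 and 0.95. Between 25.8% of genes (at 10 min) and 78.8% (at 2 h) had a lower ratio, and at 2 h Cxcl1 was at 1.31 of the median ratio. The narrow peak spanned the whole gene at all 6 times, from 1182 to 1616 bp before the TSS to beyond the 3′ end.

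Ccl2 (ENSMUSG00000035385.5, chromosome 11, 81849073 to 81850955, plus strand) encodes the monocyte attractant MCP-1. Its Myc peak held 11.2, 16.5, 16.2, 13.9, 19.2 and 15.2 CPM at the 6 times. Its ratios to 0 min of 1.25 to 1.72 were all slightly below the medians. The peak was long, 4616 to 4857 bp, and covered the promoter together with the region upstream of it. The summit lay 2379 to 2492 bp upstream of the TSS at 0, 10 and 20 min and at 4 h, and 54 bp and 110 bp past the TSS at 30 min and 2 h. A κB match, GGGAATTTCC, lay upstream at 81846719 to 81846728, in the 200 bp around the summits at 0 min, 20 min and 4 h. Of all 23617 Myc summits at 4 h, 3.46% had a κB match in such a window. A CACGTG lay at 81849221 to 81849226, in the 200 bp around the summits at 30 min and 2 h. MACS gives 1 summit per peak, so which of both subsites held it is a property of that list.

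RNAPII at Ccl2 was 15.8, 18.3, 16.4, 17.4, 16.6 and 12.4 CPM, and the 4 h value was 0.78 of the 0 min value. The summits lay 37 to 118 bp past the TSS. An annotated antisense gene, Gm17268, overlaps Ccl2 and its promoter window held the same RNAPII peak, so tags of the pair cannot be told apart.

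Ccl7 (ENSMUSG00000035373.2, chromosome 11, 81859214 to 81861027, plus strand), which lies 8259 bp past Ccl2 and encodes the related attractant MCP-3, was seen only near the calling limit. Myc was called at 2 h alone, with 54 tags (1.63 CPM) and a fold enrichment above only 4.1% of that list. Narrow RNAPII peaks were called at 0 min with 37 tags (2.42 CPM) and at 20 min with 80 tags (2.20 CPM). Broad peaks were called at 10 and 20 min. An absent call in a list says that no peak passed its threshold at that depth.

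Cxcl5 (ENSMUSG00000029371.5, chromosome 5, 91188325 to 91190651, plus strand), a second neutrophil attractant, differed from 0 min in RNAPII. RNAPII CPM were 13.4 at 0 min and 4.55, 5.44, 5.04, 6.09 and 5.41 at the 5 later times. No later interval overlapped the 0 min interval of 11.6 to 15.3, and the ratios were 0.34, 0.41, 0.38, 0.46 and 0.40. Only 0.155% of the 9663 genes (15) were at or below 0.5-fold at all 5 later times. The number of tags went with the length of the called peak, which was 5201 bp at 0 min and 1868 to 2440 bp later. Per kb of peak the ratios were 0.76, 0.92, 1.05, 0.97 and 1.05. The 0 min library was the shallowest of the 6, and its Cxcl5 peak was the only 1 to run past the 3′ end, by 1241 bp. Myc at Cxcl5 was 1.70, 2.49, 2.65, 3.09, 2.35 and 2.89 CPM, and its ratios of 1.38 to 1.81 lay on both sides of the medians.

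**Figure D3:**
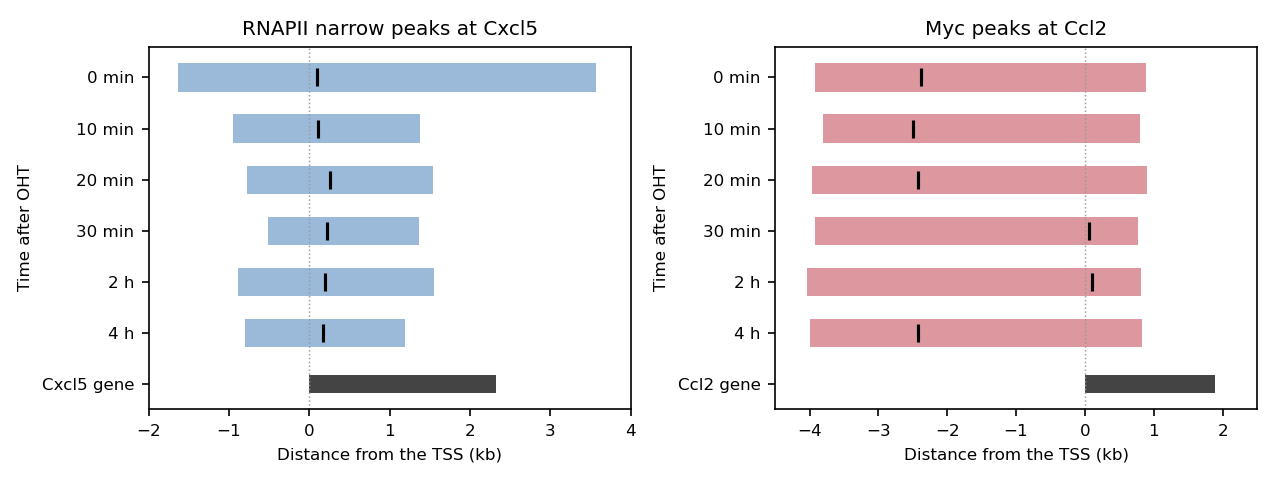
Extent of the called narrow RNAPII peaks at Cxcl5 (left) and of the Myc peaks at Ccl2 (right) at the 6 times after OHT, in kb from the outermost TSS (dotted line); black ticks are the summits and the dark bar is the gene. The Cxcl5 peak was 5201 bp long at 0 min and at most 2440 bp later, and the Ccl2 summit sat upstream at 4 of 6 times.

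The remaining genes encode an enzyme, a cytokine and an adhesion molecule. Ptgs2 (ENSMUSG00000032487.7, chromosome 1, 151947254 to 151955140, plus strand) encodes COX-2, the inducible enzyme of prostaglandin synthesis. RNAPII CPM were 80.2, 102.0, 119.7, 122, 67.3 and 70.7 at the 6 times. The ratios to 0 min were 1.27, 1.49 and 1.52 at 10, 20 and 30 min, then 0.84 at 2 h and 0.88 at 4 h. The intervals at 10, 20 and 30 min lay above the 0 min interval of 75.8 to 84.8, and those at 2 h and 4 h below it. Against the median ratios of all genes, Ptgs2 was higher at 10, 20 and 30 min, when 77.4%, 79.1% and 86.1% of genes had a lower ratio. At 2 h and 4 h it was close to the medians of 0.87 and 0.95, with 44.98% and 38.9% of genes lower. Of 9663 genes 1.56% (151) had at least 1.4-fold the 0 min value at 20 and 30 min and less than the 0 min value at 2 h and 4 h. The peak was 12494 to 13938 bp long, and per kb the ratios were 1.24, 1.38, 1.47, 0.83 and 0.91. Myc at Ptgs2 was 6.22, 10.9, 10.4, 7.62, 12.8 and 10.4 CPM, and the ratios of 1.23 to 2.06 lay on both sides of the medians. The Myc summits lay 139 to 206 bp upstream of the TSS, and the E-box printed above was in the 200 bp around the summit at 4 of 6 times.

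Il6 (ENSMUSG00000025746.7, chromosome 5, 30339701 to 30346508, plus strand) encodes interleukin 6. Myc was called there at all 6 times without an RNAPII promoter peak in any of the 12 narrow and broad lists. Among 9607 genes that kept Myc throughout, 1.83% (176) had no RNAPII peak in any of these lists. Myc CPM were 3.02, 4.48, 4.11, 3.63, 4.59 and 3.96, with ratios of 1.20 to 1.52 that were all below the medians. The summits lay 307 to 408 bp upstream of the TSS, outside the 120 bp printed above.

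Icam1 (ENSMUSG00000037405.7, chromosome 9, 20820404 to 20833241, plus strand) encodes an adhesion molecule that leukocytes bind. It had no Myc or RNAPII promoter peak in any of the 18 lists, like 47.2% of all genes. Its neighbours Icam4, 576 bp away, and Icam5, 3241 bp away, had both at all 6 times.

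**Figure D4:**
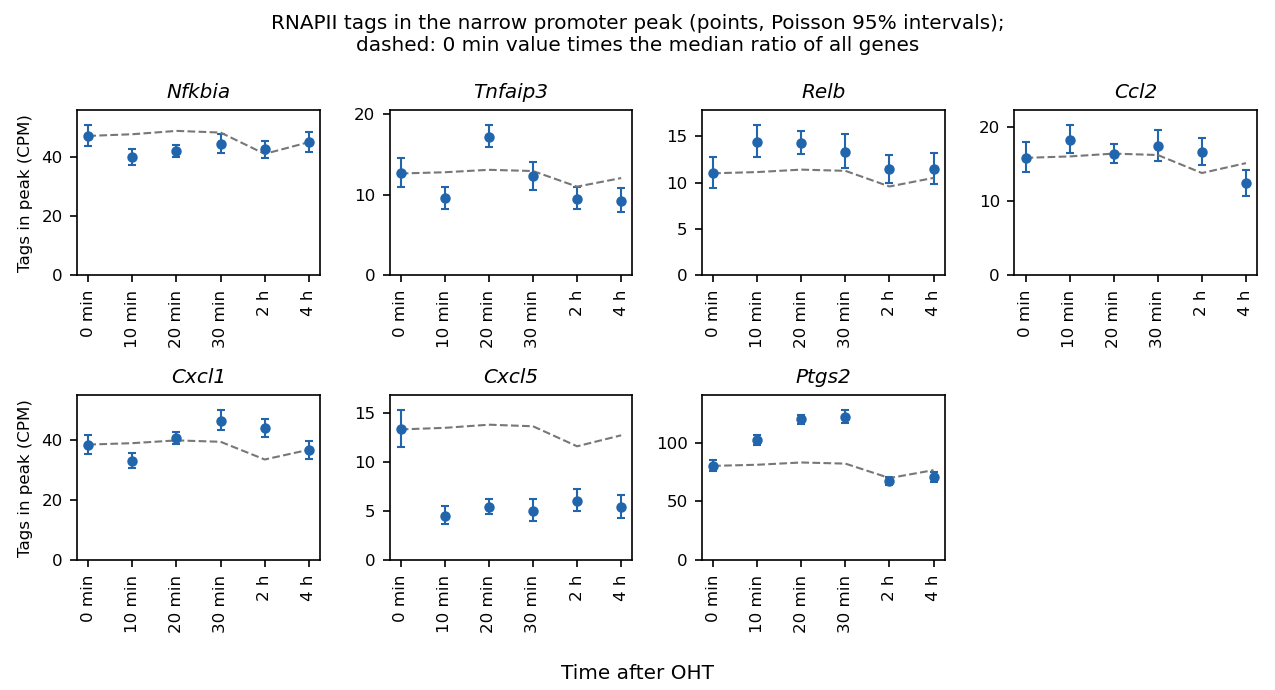
RNAPII tags in the narrow promoter peak in CPM (vertical axis) by time after OHT (horizontal axis), for the 7 genes with a peak at all 6 times. Points are single libraries, bars are exact Poisson 95% intervals, and the dashed line is the 0 min value times the median ratio of all genes. Ptgs2 reached 122 at 30 min and was 70.7 at 4 h, and Cxcl5 was 13.4 at 0 min and at most 6.09 later.

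Gene-body cover is the share of a gene's length that RNAPII peaks span, counted in percent after its first 1000 bp, for the 19468 genes of at least 1500 bp, which include all 10. It separated the genes into fully covered, partly covered and bare ones. Nfkbia, Ccl2, Cxcl1 and Ptgs2 were 100% covered by narrow peaks at all 6 times, and Ccl7, Il6 and Icam1 were at 0 at all 6. The chemokine bodies are short, with 814 to 1327 bp left past the first 1000 bp, so a single promoter peak can fill them. Tnfaip3 was covered to 12.6%, 43.0%, 96.0%, 8.92%, 14.7% and 8.41% over the 6 times. At 10 min a narrow peak separate from the promoter peak, 18717797 to 18724868, covered the 3′ part of the gene. At 20 min it spanned 18717604 to 18729035, and at both times its summit lay past the 3′ end of the gene. At 30 min that peak stopped short of the gene, and at 0 min, 2 h and 4 h it was not called. The highest Tnfaip3 cover fell in the deepest library, in which 12.2% of all genes were over 20 percentage points above 0 min, against 5.19% of genes at 30 min. The part of depth in this value was not tested. In the broad lists Tnfaip3 was at 2.81%, 1.01%, 4.27%, 3.42%, 1.17% and 0, so the high values at 10 and 20 min were found in the narrow lists alone. Relb was at 9.05%, 12.02%, 10.9%, 2.36%, 2.54% and 0.54%.

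Cxcl5 was covered fully at 0 min and to 28.4%, 40.3%, 27.05%, 42.0% and 14.85% at the 5 later times. It was lower than at 0 min by over 20 points at all 5, as were 0.262% of all genes (51), or 1.46% of the 3489 genes with over 20% cover at 0 min. At 30 min Cxcl5 was the only 1 of 10 genes lower by over 20 points, as were 2.42% of all genes, and none was higher by as much. The same held at 4 h, when 2.86% of all genes were lower and 4.25% higher by over 20 points. The median difference over the 10 genes was 0 points at 30 min and at 4 h, as it was over all genes. For the 10 genes this median was fixed by the 7 that stayed at 100% or at 0. Genes at 100% at 0 min could not rise. In the broad lists, which break the signal into shorter peaks, Cxcl5 was at 9.34% at 0 min and at 0 later. There Nfkbia varied between 45.4% at 30 min and 100% at 20 min and 2 h, Cxcl1 between 62.4% at 4 h and 100%, and Ptgs2 between 92.5% and 100%. Ccl2 reached 56.3% at 10 min and at most 2.04% at the other times.

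**Figure D5:**
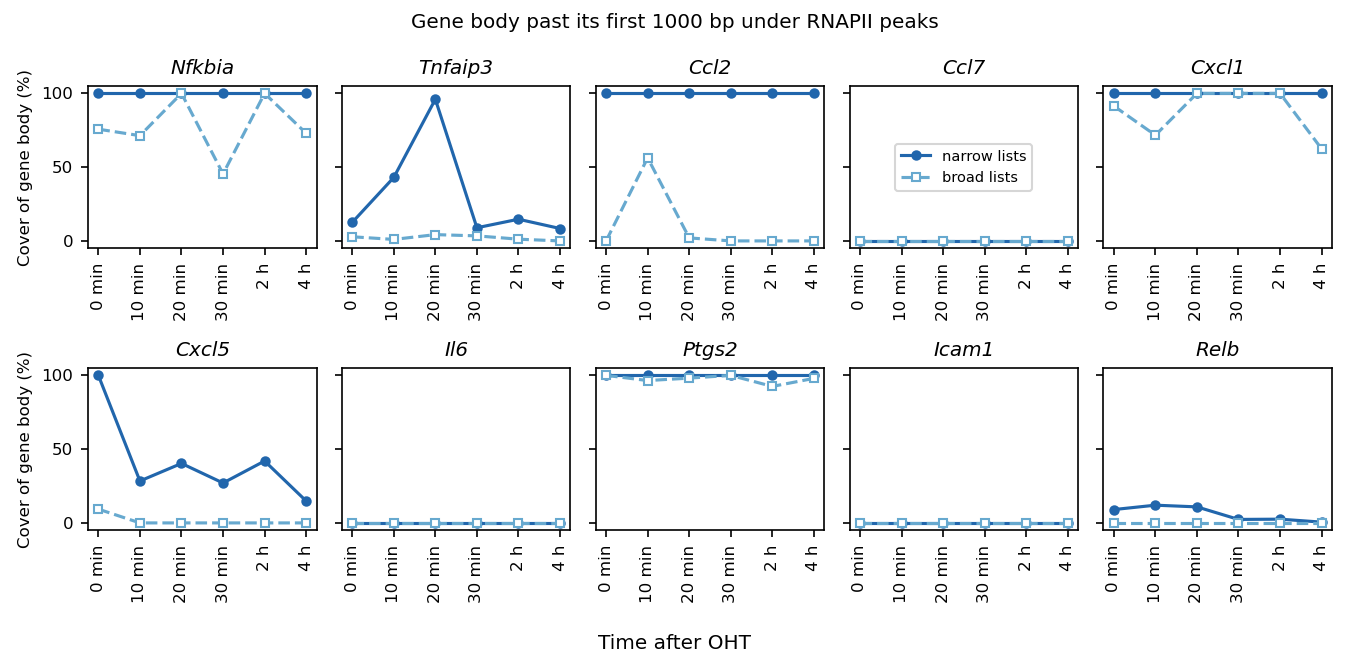
Gene-body cover by RNAPII peaks in percent (vertical axis) by time after OHT (horizontal axis), for narrow lists (filled circles) and broad lists (open squares); points are single libraries. Tnfaip3 reached 96.0% at 20 min in the narrow lists, and Cxcl5 was at 100% at 0 min and at most 42.0% later.

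Over the 12 cover values, the gene most alike by Euclidean distance was Jmjd8 for Nfkbia (14.1 points), Fam32a for Tnfaip3 (15.9), Npc2 for Relb (3.87), Cox8a for Ccl2 (25.5), Cdc42ep1 for Cxcl1 (22.0), Drap1 for Cxcl5 (29.25) and Surf2 for Ptgs2 (4.58). Drap1, like Cxcl5, was at 100% at 0 min and at 23.6% at 4 h. Fam32a, like Tnfaip3, had its highest cover, 100%, at 20 min.

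Miz1 was called in unstimulated fibroblasts at the promoters of 2 of 10 genes, Ptgs2 and Cxcl5, and 8.23% of all genes had such a peak. It was called at none of the 10 in B cells, where 5.47% of all genes had a peak. The fibroblast list used a looser p cutoff, 1e-02 against 1e-05, so the cell types are not compared. At Ptgs2 the Miz1 peak spanned 151946937 to 151947291 with an 8.94-fold enrichment. Its summit lay 147 bp upstream of the TSS, within the range of the 6 Myc summits there (139 to 206 bp upstream). At Cxcl5 the peak, 91187217 to 91187581 with 6.35-fold enrichment, had its summit 898 bp upstream of the nearest TSS.

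The rest of the pathway was read from 8 lists of 83 matched genes outside these 10. A Myc promoter peak was called at 49 of 83 at 4 h and at 48 at 0 min, and a narrow RNAPII peak at 51 at both times. Over all genes the shares were 46.6% and 44.6% for Myc and 46.7% and 47.4% for RNAPII at 4 h and 0 min, and the counts of the smaller lists below stand against the same shares. All 4 listed NF-kB subunits (Rela, Rel, Nfkb1 and Nfkb2) had both factors at all 6 times. Of 10 IKK and upstream kinases 9 had Myc at 4 h and 8 at 0 min, and of 12 adaptors 12 and 11 did. Ikbkb, the catalytic kinase IKKβ, had RNAPII at the 5 later times and not at 0 min. The 0 min RNAPII library was the shallowest of the 6, and the part of depth in this call was not tested. Tab2 and Traf3, adaptors of the signalling complexes, had Myc at the 5 later times and not at 0 min. Irak2 had narrow RNAPII at 0 min alone and no broad peak at any time. Among 5 IkB family inhibitors, Nfkbib (IkBβ) had narrow RNAPII at 10, 20 and 30 min and 4 h, and not at 0 min or 2 h. In the broad lists Nfkbib had a peak at 20 min alone. Bcl3 had Myc at every time but 4 h. All 8 feedback regulators had narrow RNAPII at all 6 times and 6 of them had Myc at all 6.

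Neither factor had a promoter peak in any list at 15 of 18 other chemokines, and 47.2% of all genes had no promoter peak of either. The other three, Ccl9, Cxcl12 and Cx3cl1, named here after their values were seen, had Myc at all 6 times. Of 13 cytokines and effectors 4 had Myc and 4 had RNAPII at both 4 h and 0 min, and 8 had a promoter peak of neither at any time. Of 13 receptors 8 had Myc at both times and 9 and 10 had RNAPII at 4 h and 0 min. Tlr3 lacked narrow RNAPII at 4 h alone, and lacked a broad peak at 30 min, 2 h and 4 h. Gene-body cover was higher than at 0 min by over 20 points at 4 of 82 genes at 30 min and 1 at 4 h, and lower at 1 and 3. Over all genes 5.19% were higher and 2.42% lower at 30 min, and 4.25% higher and 2.86% lower at 4 h. Il6st, the shared receptor subunit gp130, was the only listed gene past 20 points in the same direction at both times. Its narrow cover was 26.25%, 0, 16.7%, 85.75%, 0.92% and 94.99% over the 6 times. In the broad lists Il6st was at 0, 3.13%, 17.2%, 0.70%, 0 and 2.09%, so the high values at 30 min and 4 h were absent there. Miz1 peaks were called at 8 of the 83 in fibroblasts (8.23% of all genes) and at 3 in B cells (5.47% of all genes).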

How the data were processed

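ChIP-seq peak lists of 14 of 15 samples were used (20 lists, 1 library each), and the signal of the input library was not analysed here. The submitters' processing notes name BWA 0.6.2-r126, MACS2 2.0.9 and mm9. Myc and narrow RNAPII peaks were called with MACS 1.4.2 and broad RNAPII and Miz1 peaks with MACS 2.0.9 against a control, per the file headers. The p cutoff was 1e-08 for Myc and RNAPII, 1e-02 for Miz1 in fibroblasts and 1e-05 for Miz1 in B cells, per the file headers.

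The MACS 1.4.2 lists give for each peak the tag count, a score of -10 times log10 p, the fold enrichment over the control as a ratio, and a false discovery rate in percent, as deposited. The MACS 2.0.9 lists give the pileup signal, −log10 p-value, fold enrichment ratio and −log10 q-value, as deposited. These are the authors' own values.

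Genes came from GENCODE vM1 on NCBIM37: promoters were 1000 bp either side of each protein-coding TSS, and gene bodies were the gene past its first 1000 bp, for genes of at least 1500 bp. CPM values are the deposited tag counts per 1000000 library tags, per the file headers. Analyses used Python 3.11.15, pandas 2.3.3, numpy 2.4.6 and scipy 1.17.1, and the interval and overlap code was tested on simulated data. The genes, lists and thresholds of difference were chosen with earlier results of these data known. The ratios per kb of peak and the 2-fold, 0.5-fold and 1.4-fold rules were added after the data had been seen. All 10 genes are named, and listed pathway genes are named where a promoter peak differed between 4 h and 0 min or cover differed by over 20 points at 30 min and 4 h alike. Of 84 pathway symbols 1, Cxcl11, was not matched. Alternatives were windows of 500 and 2000 bp, other gene-body limits, a p of at most 1e-20, the 15000 peaks of highest score and the broad lists.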

Additional observations from a re-analysis of the deposited data

How the results depend on the processing

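No paired analysis was possible because each group held 1 library, and for the same reason no replicate could be left out. Of 61 recomputed counts and medians over the 10 genes, 60 stayed within 1.5 times the reported count or, for the median cover differences, within 5 points of the reported 0, and the exception was Miz1 in fibroblasts, called at 1 gene with a promoter window of 500 bp. There the Cxcl5 peak drops out, as its summit lies 898 bp from the TSS. Within the limit of 1.5 times, the Myc counts at 0 min, 4 h and all 6 times went from 8 to 6, 7 and 6 with peaks of p at most 1e-20. They were 7, 6 and 6 with the 15000 peaks of highest score. At 0 min the Myc peaks of Cxcl5 and Relb did not reach a p of 1e-20. The median cover difference was -1.82 points at 30 min and -2.08 at 4 h over the 4 genes of at least 3000 bp with RNAPII at 0 min, and -1.02 at 4 h in the broad lists. Of 128 other values, for single genes and for counts over the pathway lists, 104 stayed within the same limits, 22 moved further and 2 reversed. Within 5 points, the Tnfaip3 cover at 30 min minus 0 min was 0.61 points in the broad lists, against -3.64 in the narrow ones. The reversal was the Relb cover at 30 min minus 0 min, which was 0.53 points both with peaks of p at most 1e-20 and with the 15000 peaks of highest score. The cause was not tested. Ccl7 cover at both 30 min and 4 h minus 0 min was -34.8 points with only the first 500 bp left out and -52.8 points over the whole gene, since its 0 min peak covers the start of the gene. No test of depth was made at the weak peaks of Ccl7, whose narrow RNAPII peak was called in the shallowest RNAPII library (0 min) and the deepest (20 min).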

Other observations

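Further Myc peaks lay around these genes, counted within 50000 bp either side of the gene's outermost TSS and outside the promoter window of any protein-coding TSS. Around Ccl2 and Ccl7, which share the same region, there were 3 such peaks at 0 min and 6, 5, 6, 6 and 5 at 10, 20 and 30 min, 2 h and 4 h. The whole Myc lists also grew, from 19995 peaks at 0 min to 24066, 25702, 22996, 27388 and 23617 at those times. Whether the region gained more than the lists did was not tested. Cxcl1 had 3 at each time, the nearest with its 4 h summit 6185 bp upstream of the TSS. Nfkbia had 3 at 0 and 10 min and 4 at the other times, all on the 3′ side of the gene in the 4 h and 0 min lists. The strongest of these at 4 h lay 26113 bp past the TSS, with 328 tags. Icam1, bare at its promoter, had 1 Myc peak at each time, with its summit 43539 bp upstream at 4 h and 43525 bp upstream at 0 min and a fold enrichment of 35.3 at 4 h and 31.7 at 0 min. Il6 had none at any time.

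Within the long Myc peak upstream of Ccl2, a Miz1 peak of unstimulated fibroblasts lay at chromosome 11, 81845693 to 81846000, with its summit 3201 bp upstream of the TSS and a 9.28-fold enrichment. Another Miz1 peak, at chromosome 5, 91310811 to 91311375, lay 9144 bp upstream of Cxcl1 inside a Myc peak of the 0 min list that spanned 91308657 to 91311633. Fibroblast Miz1 peaks 41309 bp upstream of Cxcl1 and 35499 bp upstream of Icam1 lay in none of the further Myc peaks counted above. In B cells, Miz1 peaks lay 17832 bp past the Icam1 TSS and 38263 bp upstream of Relb. The share of all Miz1 peaks inside Myc peaks was not computed.

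Neighbouring chemokine genes differed from Ccl2, Cxcl1 and Cxcl5 in their promoter calls. Ccl11, Ccl12, Ccl8 and Ccl1, which follow Ccl7 on chromosome 11, and Cxcl2, Cxcl15, Cxcl3, Pf4 and Ppbp, which lie around Cxcl1 and Cxcl5 on chromosome 5, had no Myc and no narrow RNAPII promoter peak at any of the 6 times. Over all genes 47.2% had no promoter peak of either factor in any of the 18 narrow and broad lists. All of these neighbours but Ccl1 are among the 15 other chemokines without a peak given above. Cxcl2 lies 10756 bp from Cxcl1 and Ppbp lies 6893 bp from Cxcl5.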
